A study of Mus musculus with 12 samples.

Results

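The unfolded protein response genes Xbp1, Hspa5, Hsp90b1, Atf4, Atf6, Ern1, Ddit3, Dnajb9, Herpud1 and Calr were followed through the conversion of a mouse B lineage cell line towards macrophages. Every probe set that the platform annotation maps to one of these 10 symbols was taken, which gave 28 of 45101 probe sets and 10 of 18193 genes. All 10 genes passed the filter on dim signals, as did 11696 genes in all, and 25 of the 28 probe sets were bright enough to be tested. The RNA came from 12 samples, each hybridised to a one-colour array, in 6 groups of 2. HAFTL, which derives from fetal liver and was transformed with Ha-ras, was treated with beta-estradiol. C10 cells carry inducible C/EBPα, a transcription factor of myeloid cells, in the vehicle samples too, and received either ethanol, the vehicle, or beta-estradiol for 3, 12, 24 or 48 h. HAFTL has no vehicle samples here, so a difference between HAFTL and vehicle C10 joins cell line and agent, which cannot be told apart. The labels do not say whether C10 is 1 clone or whether duplicates were separate cultures, so the p-values rest on the spread between 2 arrays of a group, and that spread may be technical.

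The unfolded protein response is how a cell adjusts its endoplasmic reticulum (ER) to the load of proteins folding there. In mammals the kinase and nuclease Ire1 (gene Ern1) splices Xbp1 mRNA into the message of an active transcription factor, Atf6 is cut in the Golgi to release its own transcription factor, and the kinase Perk (gene Eif2ak3) slows translation while favouring that of Atf4, which in turn induces Ddit3 (Chop). Xbp1 and Atf6 raise chaperones such as Hspa5 (BiP), Hsp90b1 (Grp94) and Calr (calreticulin) and genes of ER-associated degradation such as Herpud1. In the B lineage Xbp1 is best known for its need in plasma cells, which secrete antibody. The arrays measured transcript levels only, and not Xbp1 splicing, Atf6 cleavage or phosphorylation.

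Hspa5, Hsp90b1, Calr and Herpud1 carry, near their start, the DNA elements through which Atf6 and Xbp1 are known to act, and their promoters are shown because the 3 chaperones rose while Herpud1 fell. The windows run from 250 bases before to 50 bases after the gene start and come from RefSeq (GRCm38.p6), whose promoter table held 9 of the 10 genes, all but Atf6. Each is written 5′ to 3′ along the gene's own strand with matches in capitals. Capitals mark the ER stress response element (ERSE, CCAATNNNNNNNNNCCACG) in Hspa5 at chr2:34771840-34772139 (plus strand), in Hsp90b1 at chr10:86705395-86705694 (minus strand) and in Calr at chr8:84846882-84847181 (minus strand). In Herpud1, at chr8:94386179-94386478 (plus strand), they mark first the C/EBP-ATF response element (CARE, TGATGNAA, read on the opposite strand), the kind of site that Atf4 binds, and then ERSE-II (ATTGGNCCACG).
Hspa5: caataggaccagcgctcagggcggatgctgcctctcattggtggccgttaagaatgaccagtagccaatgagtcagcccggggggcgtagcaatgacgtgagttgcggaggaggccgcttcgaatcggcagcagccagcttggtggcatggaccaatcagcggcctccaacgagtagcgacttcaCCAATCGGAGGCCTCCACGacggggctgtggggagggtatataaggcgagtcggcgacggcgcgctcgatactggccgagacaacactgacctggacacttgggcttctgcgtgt
Hsp90b1: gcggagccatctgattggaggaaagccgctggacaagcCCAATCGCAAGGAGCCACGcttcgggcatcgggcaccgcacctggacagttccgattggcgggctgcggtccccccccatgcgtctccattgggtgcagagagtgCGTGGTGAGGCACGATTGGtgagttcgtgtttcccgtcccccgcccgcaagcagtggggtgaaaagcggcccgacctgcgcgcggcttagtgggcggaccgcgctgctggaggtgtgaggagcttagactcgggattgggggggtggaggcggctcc
Calr: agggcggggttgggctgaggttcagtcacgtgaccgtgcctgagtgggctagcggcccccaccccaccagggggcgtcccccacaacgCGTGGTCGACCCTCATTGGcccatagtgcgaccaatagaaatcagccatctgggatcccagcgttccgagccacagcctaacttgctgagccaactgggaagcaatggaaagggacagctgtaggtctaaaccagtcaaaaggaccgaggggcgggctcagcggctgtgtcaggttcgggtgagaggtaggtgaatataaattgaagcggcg
Herpud1: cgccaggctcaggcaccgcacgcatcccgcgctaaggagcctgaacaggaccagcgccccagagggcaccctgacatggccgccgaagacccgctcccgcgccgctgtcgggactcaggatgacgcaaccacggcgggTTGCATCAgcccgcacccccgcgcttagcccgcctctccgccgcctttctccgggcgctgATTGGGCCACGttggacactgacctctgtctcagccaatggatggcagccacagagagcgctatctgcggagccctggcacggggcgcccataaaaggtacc
Both strands were searched. ERSE occurred in 39 of 32851 promoters (0.119%), ERSE-II in 12 (0.0365%) and CARE in 1304 (3.97%). In Hspa5 the ERSE lay 65 to 47 bases before the start. Hsp90b1 had it at 212 to 194 and, on the opposite strand, at 107 to 89 bases before the start, and Calr at 162 to 144 on the opposite strand. The ERSE-II of Herpud1 lay 52 to 42 bases before its start and the CARE 112 to 105. The 3 motifs were not found in the windows of the other 5 genes.

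Signals are array intensities after quantile normalisation, changes are differences of log2 signal from vehicle C10 with their standard errors (n = 2 arrays per group), and a change was called at an adjusted p below 0.05 (limma, Benjamini-Hochberg adjustment over 11696 genes, two-sided). A gene is represented by its brightest probe set unless another is named. Summed signal of 9 B lineage markers was 112145 to 113819 in vehicle C10, 36769 to 37655 at 3 h and 18743 to 20611 after 48 h, and that of 10 macrophage markers was 1620 to 1633 in vehicle C10, 1903 to 2170 at 3 h, 84464 to 85384 at 24 h and 120153 to 120446 after 48 h. HAFTL had 120788 to 121574 for the B lineage and 2356 to 2694 for the macrophage markers. The macrophage markers did not all rise: 3 were higher and 2 lower than in vehicle C10 at 3 h, and 4 and 3 after 12 h. At 24 h and again at 48 h, 8 were higher and 1 lower (shares of all genes are given below). Of 8 plasma cell markers, Jchain and Tnfrsf17 lay under the filter level in all 6 groups, and most T and NK cell and stromal markers did too. Of 4 erythroid markers, 2 or 3 lay under it in each group. The ratio of 5′ to 3′ Actb signal, which falls when RNA is degraded, was 0.716 ± 0.035 in HAFTL and 0.765 ± 0.027 to 0.825 ± 0.033 in C10 with estradiol, against 0.610 ± 0.040 in vehicle C10 (SD, n = 2 each), and the second 3 h array had an 18S signal of 5962, against 235 to 1025 on the others. The part of cell type makeup and RNA quality in the changes was not tested. The counts of genes called at 3 h were the same without that 3 h array. In these bulk samples fewer cells of a type and less RNA per cell cannot be told apart.

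All 10 genes differed among the 5 C10 groups (moderated F test), where 76.0% of all genes did, so that count by itself is near what most genes showed. Some were high throughout the course or from 12 h on (Xbp1, Hspa5, Hsp90b1, Calr and Ern1). Others were low at most times (Ddit3, Herpud1 and Atf4), though the 12 h call of Atf4 depended on the processing. The probe sets of Atf6 disagree, and Dnajb9 was low at 3 h only. At 3 h, 4 of 10 genes were higher and 5 lower, where 20.9% and 27.3% of all genes were. At 12 h and again at 24 h, 5 were higher and 4 lower, beside 22.3% and 28.7% of all genes at 12 h and 24.2% and 33.3% at 24 h. At 48 h, 5 were higher and 3 lower, beside 24.2% and 38.2%. Called changes thus reached 8 or 9 of the 10 genes at each time, in both directions.

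**Figure D1:**
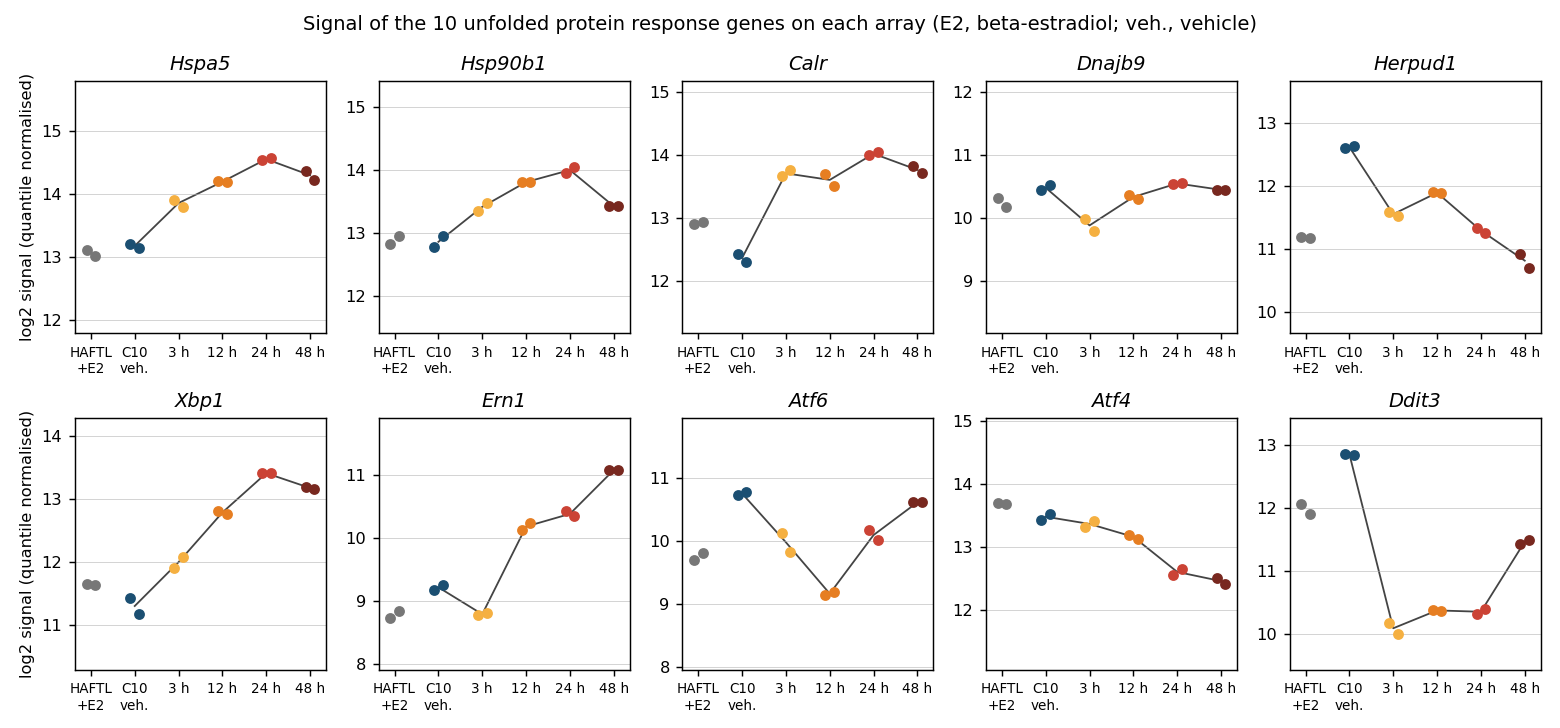
Log2 signal (array intensity, quantile normalised) of each of the 10 genes on each array, with HAFTL with estradiol (E2) at the left and then vehicle C10 and C10 with estradiol at 3, 12, 24 and 48 h; points are single arrays, lines join the means of the C10 groups, and all panels span the same number of log2 units. Xbp1, Hspa5, Hsp90b1 and Calr stand highest at 24 h and Ern1 after 48 h, while Ddit3 drops to 1023 and 1152 on the linear scale at 3 h and Herpud1 is lowest at 48 h.

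Hspa5 encodes BiP, the Hsp70 chaperone of the ER lumen that also holds the sensors inactive. Its signal was 9498 and 9043 in vehicle C10, 15434 and 14278 at 3 h, 18914 and 18634 after 12 h, 23781 and 24374 at 24 h, and 21141 and 19221 after 48 h. The groups at every time lay above both vehicle arrays, with the highest values at 24 h. Hspa5 rose by 0.68 ± 0.08 at 3 h on the log2 scale (adjusted p = 3.0e-04), by 1.02 ± 0.08 after 12 h, by 1.38 ± 0.08 at 24 h (2.60-fold, adjusted p = 4.4e-06) and by 1.12 ± 0.08 after 48 h. Its probe set 1427464_s_at moved likewise, by 1.08, 1.47, 1.94 and 1.55. The dimmer 1447824_x_at was highest at 3 h (1954 and 1851, against 882 and 892 in vehicle C10), with changes of 1.10, 0.92, 0.53 and 0.22, the last of them not called (adjusted p = 0.080). Between 12 h and 24 h that probe set fell by 0.39 while both others rose, so they place the peak at different times.

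Hsp90b1 encodes Grp94, the Hsp90 of the ER, which folds integrins and Toll-like receptors among others. It had a signal of 7030.5 and 7913 in vehicle C10, 10501 and 11434 at 3 h, 14381 and 14413 after 12 h, 15856 and 17014 at 24 h, and 11051 and 11004 after 48 h. All times lay above vehicle C10, and the 48 h arrays lay within the range of the 3 h arrays. The rises were 0.55 ± 0.09 at 3 h (adjusted p = 0.0014), 0.95 ± 0.09 after 12 h, 1.14 ± 0.09 at 24 h (2.20-fold, adjusted p = 1.9e-05) and 0.56 ± 0.09 after 48 h (adjusted p = 7.5e-04). The probe set 1438040_a_at gave 1.02, 1.78, 2.04 and 1.29, all called.

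Calr encodes calreticulin, the lectin chaperone that binds calcium and retains glycoproteins until they fold. Signals were 5495 and 5069.8 in vehicle C10, 12970.0 and 13856 at 3 h, 13283 and 11712 after 12 h, 16389 and 16889 at 24 h, and 14495 and 13386 after 48 h. Most of the rise of Calr was reached by 3 h: the 12 h arrays overlapped those of 3 h, and the difference between these times was not called (-0.10 ± 0.09). It rose by 1.34 ± 0.09 at 3 h (2.54-fold, adjusted p = 1.8e-05), 1.24 ± 0.09 after 12 h, 1.66 ± 0.09 at 24 h and 1.40 ± 0.09 after 48 h (adjusted p = 4.8e-06). Both other probe sets of Calr were called at all 4 times, with changes between 1.32 and 2.14. Tested on their own, 1 of the 3 probe sets was called lower at 12 h than at 3 h.

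Dnajb9 encodes ERdj4, a J-domain partner of BiP and in mammals a well-known target of Xbp1. Its 2 arrays read 1396 and 1473 in vehicle C10, 1012 and 888 at 3 h, 1328 and 1264 after 12 h, 1493 and 1515 at 24 h, and 1398 and 1405 after 48 h. The 3 h arrays lay under all others of C10, and those of 48 h overlapped vehicle C10. Dnajb9 fell by 0.60 ± 0.09 at 3 h (adjusted p = 8.6e-04), although with arrays scaled to spike-in transcripts, described below, the difference was 0.05. It was not called at 12 h (-0.15, adjusted p = 0.20), 24 h (0.07, adjusted p = 0.53) or 48 h (-0.03, adjusted p = 0.76), with 95% intervals of the difference from -0.35 to 0.06, from -0.13 to 0.27 and from -0.23 to 0.17. It has 1 probe set.

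Herpud1 encodes Herp, a membrane protein that assembles the ubiquitin ligase complex of ER-associated degradation. Its signal was 6216 and 6314 in vehicle C10, 3068 and 2925 at 3 h, 3821 and 3764 after 12 h, 2560.3 and 2444 at 24 h, and 1941 and 1663 after 48 h. Every estradiol array of C10 lay under both vehicle arrays, and the lowest were those of 48 h. The gene fell by 1.06 ± 0.08 at 3 h (adjusted p = 4.1e-05), 0.72 ± 0.08 after 12 h, 1.32 ± 0.08 at 24 h and 1.80 ± 0.08 after 48 h (3.49-fold lower, adjusted p = 1.0e-06). With spike-in scaling the 12 h value turned to 0.11. Its second probe set, 1435626_a_at, fell at all 4 times, with changes between -0.86 and -1.59. Herpud1 and Ddit3 were thus high in vehicle C10, while Xbp1, Hspa5, Hsp90b1 and Calr had their lowest C10 signals there.

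Among the sensors, Ern1, which encodes Ire1, moved down first and then up. It had 582 and 615 in vehicle C10, 439 and 450.3 at 3 h, 1119.8 and 1216 after 12 h, 1379 and 1305 at 24 h, and 2162 and 2185 after 48 h. The 3 h arrays lay under vehicle C10 and those of all later times above it. Ern1 fell by 0.43 ± 0.08 at 3 h (adjusted p = 0.0025), a value that turned to 0.17 with spike-in scaling, and rose by 0.96 ± 0.08 after 12 h, 1.17 ± 0.08 at 24 h and 1.86 ± 0.08 after 48 h (3.64-fold, adjusted p = 5.1e-07). The probe set 1438583_at disagreed at 3 h, with 200.2 and 199.6 against 106 and 88 in vehicle C10, a change of 1.05 ± 0.19 (adjusted p = 0.0037). From 12 h on it was higher as well, by 2.32, 2.40 and 2.85. Another, 1421240_at, stayed dim and was not called, and a further 2 lay under the filter level.

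Atf6 cannot be given a single direction, since its 3 probe sets disagree. The brightest, 1435444_at, read 1704 and 1758 in vehicle C10, 1120.0 and 913 at 3 h, 564 and 585 after 12 h, 1155 and 1039.7 at 24 h, and 1575 and 1567 after 48 h. On this probe set the signal was lowest at 12 h, with all 4 times under vehicle C10: it fell by 0.77 ± 0.11 at 3 h (adjusted p = 7.0e-04), by 1.59 ± 0.11 after 12 h (3.01-fold lower, adjusted p = 1.7e-05) and by 0.66 ± 0.11 at 24 h, and differed by -0.14 ± 0.11 after 48 h (adjusted p = 0.30). The probe set 1456021_at, with 1213 and 1203 after 48 h against 608 and 425 in vehicle C10, gave 0.68 at 3 h, 0.08 after 12 h (not called), 0.81 at 24 h and 1.25 ± 0.21 after 48 h (adjusted p = 0.0015). The dimmest, 1453288_at, was higher at all 4 times by 1.03 to 1.36. Both brighter probe sets were lower at 12 h than at 3 h and higher at 24 h than at 12 h, which the test called for 1435444_at in both steps and for 1456021_at in the second. Taking the mean of the probe sets instead gave 0.42 at 3 h (adjusted p = 0.032), -0.16 after 12 h, 0.44 at 24 h and 0.75 after 48 h (adjusted p = 0.0014).

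Xbp1, the transcription factor downstream of Ire1, had 2775 and 2306 in vehicle C10, 3856 and 4357 at 3 h, 7192 and 6968 after 12 h, 10926 and 10889 at 24 h, and 9419 and 9119 after 48 h. No array of any time overlapped vehicle C10, and the level at 24 h was the highest of the 6 groups. Xbp1 rose by 0.70 ± 0.10 at 3 h (adjusted p = 9.0e-04), 1.48 ± 0.10 after 12 h (2.80-fold), 2.11 ± 0.10 at 24 h (4.31-fold, adjusted p = 1.9e-06) and 1.87 ± 0.10 after 48 h (3.66-fold). The change at 24 h was the largest rise among the 10 genes at any time, and 3 other probe sets were called higher from 12 h on, by 1.19 to 2.61. At 3 h only 1420012_at, the dimmest, was not called (0.40, adjusted p = 0.095).

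Atf4 encodes the factor whose translation rises when Perk or its sister kinases phosphorylate eIF2α. Its mRNA gave 11015 and 11739 in vehicle C10, 10109 and 10903 at 3 h, 9345 and 8883 after 12 h, 5969 and 6428 at 24 h, and 5786 and 5416 after 48 h. The 2 later times lay well under the rest. Atf4 fell by 0.88 ± 0.08 at 24 h (adjusted p = 4.5e-05) and by 1.02 ± 0.08 after 48 h (2.03-fold lower, adjusted p = 1.4e-05), while the difference at 3 h was -0.12 ± 0.08 (adjusted p = 0.27). At 12 h Atf4 fell by 0.32 ± 0.08 (adjusted p = 0.011), a value that turned to 0.59 with spike-in scaling. It was not called without the second 12 h array (-0.28) or without the second vehicle array (-0.27). Nor was it called without quantile normalisation (-0.15, adjusted p = 0.23) or with centring on the array median (-0.11, adjusted p = 0.43). The mean of its probe sets gave -0.17 (adjusted p = 0.11). The probe set 1438992_x_at gave -0.88 at 24 h and -0.63 after 48 h, both called, and 1439258_at lay at the floor on all arrays.

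Ddit3 encodes Chop, a C/EBP family member induced through Atf4 that can pair with C/EBPα. It had the largest fall of the 10 genes, with 7402 and 7336 in vehicle C10, 1152 and 1023 at 3 h, 1323 and 1319 after 12 h, 1266 and 1338 at 24 h, and 2757 and 2873 after 48 h. The first 3 times lay close together and far under vehicle C10, and the 48 h arrays lay between. Ddit3 fell by 2.76 ± 0.09 at 3 h (6.79-fold lower, adjusted p = 8.0e-07), 2.48 ± 0.09 after 12 h, 2.50 ± 0.09 at 24 h and 1.39 ± 0.09 after 48 h (2.62-fold lower, adjusted p = 4.2e-06). The dimmer probe set 1443897_at did not show it: its signal was 676 and 559 at 3 h against 501 and 526 in vehicle C10, and its changes of 0.26, 0.26, -0.30 and -0.28 were not called. From 12 h to 24 h, however, 1443897_at was called lower, with 671 and 564 and then 402 and 430, while the brightest probe set differed by -0.02 (not called). What part of the Ddit3 transcripts each of the 2 probe sets detects was not tested.

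**Figure D2:**
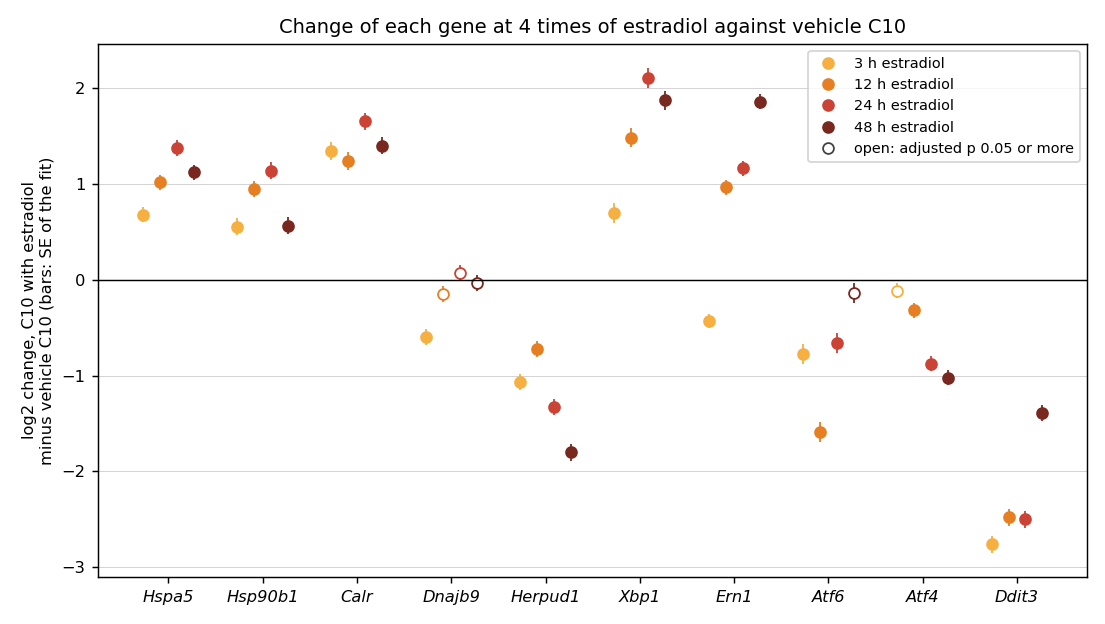
Log2 change of each gene in C10 with estradiol at 3, 12, 24 and 48 h against vehicle C10; bars are standard errors of the fit, filled points had an adjusted p below 0.05 and open points did not. Ddit3 and Herpud1 lie below 0 and Xbp1, Hspa5, Hsp90b1 and Calr above it at all 4 times, while Ern1 crosses 0 between 3 h and 12 h; with spike-in scaling the 12 h value of Herpud1 and the 3 h value of Ern1 change sign.

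Over the 25 probe sets tested on their own, 14 were higher and 6 lower at 3 h, 15 and 5 after 12 h, 16 and 6 at 24 h, and 15 and 5 after 48 h. Of all 26524 probe sets tested, 20.6% were higher and 20.3% lower at 3 h, 22.1% and 21.7% after 12 h, 23.7% and 26.4% at 24 h, and 25.5% and 30.0% after 48 h. Probe sets of 1 gene were called in opposite directions for Atf6 at 3, 12 and 24 h and for Ern1 at 3 h. For Xbp1, Hspa5, Hsp90b1, Calr and Herpud1 none was called against the others in a comparison with vehicle C10. Probe sets whose names end in _s_at or _x_at may also detect related transcripts.

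**Figure D3:**
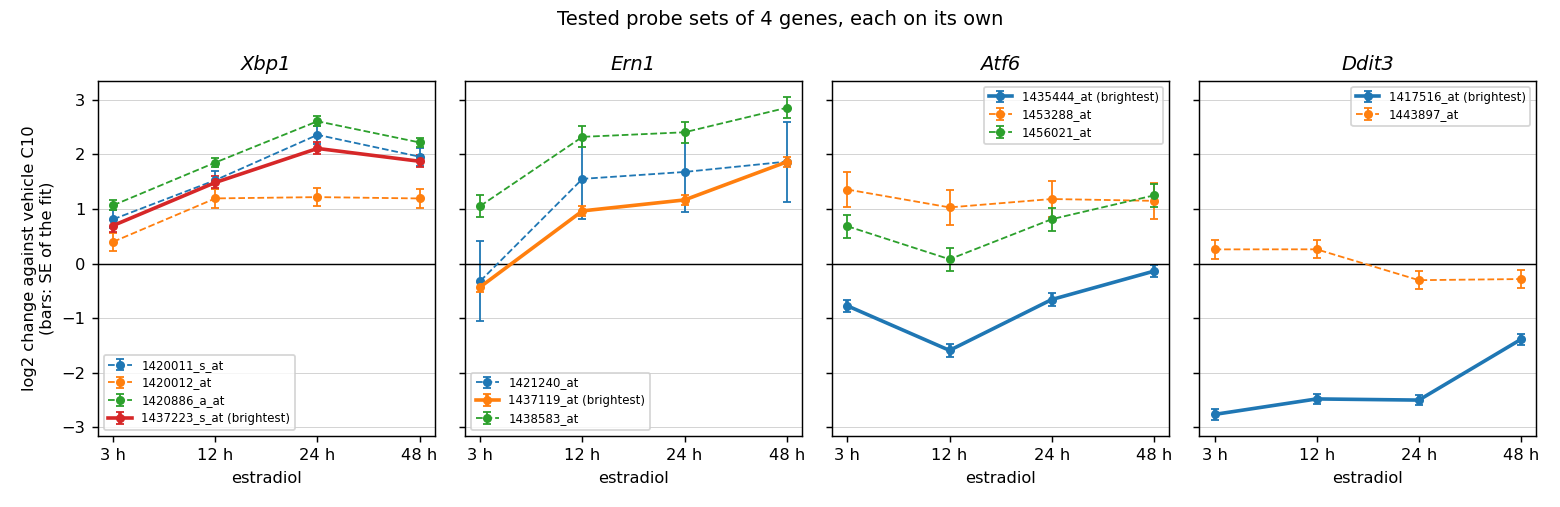
Log2 change against vehicle C10 at 3, 12, 24 and 48 h for each tested probe set of Xbp1, Ern1, Atf6 and Ddit3; bars are standard errors of the fit, and the brightest probe set of a gene has the thick solid line. All 4 probe sets of Xbp1 lie above 0, while those of Atf6 at 3, 12, 24 and 48 h and those of Ddit3 at 3 h and 12 h lie on both sides of it.

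The scaling between arrays bears on the falls more than on the rises. With the arrays set to equal spike-in (poly-A) signal in place of quantile normalisation, the median change over all genes moved to 0.60 at 3 h, 0.62 after 12 h, 0.17 at 24 h and then 0.41 after 48 h, against -0.06, -0.08, -0.13 and -0.19. Higher genes then made up 82.9%, 85.3%, 63.9% and 71.0% of all calls at these times, against 43.4%, 43.7%, 42.1% and 38.8%. Of the 10 genes, 4 were then called higher and 1 lower at 3 h, and 5 higher and 1 lower at each later time, where 16.7% of 12000 genes tested on that scale were higher and 3.43% lower at 3 h, 19.6% and 3.38% after 12 h, 12.0% and 6.79% at 24 h, and 20.8% and 8.5% after 48 h. Xbp1, Hspa5, Hsp90b1 and Calr were called higher at all 4 times by either scaling, and Ern1 from 12 h on. Of the falls, those of Ddit3 at 3, 12 and 24 h and of Herpud1 after 48 h were called by either scaling. Relative to the median of all genes under spike-in scaling, Ern1 at 3 h stood at -0.43, Dnajb9 at 3 h at -0.55, Herpud1 after 12 h at -0.52 and Atf4 after 12 h at -0.03. The spike-in scale is itself imprecise, since the duplicates differed on it by up to 1.05 log2 units, at 48 h.

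Successive times were compared as well. Between 3 h and 12 h, 7 genes rose and 1 fell, where 16.6% of all genes rose and 16.6% fell. The largest of these steps was that of Ern1, 1.39 ± 0.08 (adjusted p = 2.6e-05), followed by Atf6, -0.82, and Xbp1, 0.79. Between 12 h and 24 h, 4 rose (Xbp1, Hspa5, Atf6 and Calr) and 2 fell (Atf4 and Herpud1), beside 22.3% and 23.1% of all genes. Between 24 h and 48 h, 3 rose (Atf6, Ern1 and Ddit3) and 3 fell (Hspa5, Hsp90b1 and Herpud1), beside 9.47% and 17.9%. Ddit3 regained 1.11 ± 0.09 in that last step (adjusted p = 1.6e-04), on the probe set that had fallen, and Hsp90b1 fell by 0.57 ± 0.09 (adjusted p = 0.0030). The call of Hspa5 in that step was lost whichever of the 12 arrays was left out (adjusted p between 0.051 and 0.20). No step of the 10 genes was called with spike-in scaling. Of 12000 genes tested on that scale, 280 rose and 139 fell from 3 h to 12 h. From 12 h to 24 h 502 rose and 1152 fell, and from 24 h to 48 h 190 and 126. Calls were thus scarcer among all genes too, so their absence says little about these 10 genes.

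HAFTL with estradiol differed from vehicle C10 in 5 of the 10 genes, 1 higher and 4 lower, where 7.11% and 8.12% of all genes were. Calr was higher, with 7637 and 7825 in HAFTL against 5495 and 5069.8 in vehicle C10, a change of 0.55 ± 0.09 (adjusted p = 0.0075). Herpud1 was lower, with 2322 and 2306 in HAFTL against 6216 and 6314 in vehicle C10 (-1.44 ± 0.08, adjusted p = 8.5e-05). HAFTL and vehicle C10 did not overlap in either gene, nor in Ddit3, which was lower, with 4269.9 and 3836 in HAFTL against 7402 and 7336 in vehicle C10 (-0.86 ± 0.09, adjusted p = 0.0011). Atf6 was lower on its brightest probe set, with 834 and 897 in HAFTL against 1704 and 1758 in vehicle C10 (-1.001 ± 0.11, adjusted p = 0.0014), and its other probe sets gave -0.26 and -0.44, not called. Ern1 was lower too on its brightest probe set, with 427 and 458 in HAFTL against 582 and 615 in vehicle C10 (-0.43 ± 0.08, adjusted p = 0.0099). Its dimmer probe set 1438583_at did not show this fall, with 138 and 104 in HAFTL against 106 and 88 in vehicle C10 (not called). The mean of all 5 Ern1 probe sets gave -0.07 (adjusted p = 0.88), but it also takes in dim probe sets under the filter level.

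The other 5 genes were not called between HAFTL and vehicle C10. Xbp1 had 3226 and 3205 in HAFTL against 2775 and 2306 in vehicle C10, which did not overlap but gave 0.35 ± 0.10 (adjusted p = 0.059), with a 95% interval from 0.11 to 0.58. This result lay near the threshold. Xbp1 was called higher with the mean of its probe sets (0.45, adjusted p = 0.027) and with a filter at the 70th percentile (adjusted p = 0.032). The same held with a floor of 64 (adjusted p = 0.047) and with an intensity trend in the prior (adjusted p = 0.0089). Tested on their own, 1 of its 4 probe sets was called higher. Hspa5 differed by -0.11 (interval -0.30 to 0.07), Hsp90b1 by 0.03 (interval -0.18 to 0.23), Dnajb9 by -0.23 (interval -0.43 to -0.03) and Atf4 by 0.21 (interval 0.03 to 0.39). When only these 2 groups were fitted, 2 of the 5 calls remained (Herpud1 and Atf6). The lost calls lay near the threshold in that limma fit, with adjusted p of 0.051 for Ddit3, 0.07 for Calr and 0.089 for Ern1. That fit estimates the spread from fewer arrays, and the share of all genes called in it is not given here. With spike-in scaling 0 of the 5 calls remained, against 128 calls among all genes. Without 1 array of either group, 4 to 6 genes were called.

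Since HAFTL received estradiol and vehicle C10 did not, the times were also set against HAFTL. The rises of Xbp1, Hspa5, Hsp90b1 and Calr were called at all 4 times with either group as the reference, and so were the falls of Ddit3. Against HAFTL, calls over all genes made up 22.3% (higher) and 27.8% (lower) at 3 h, 22.6% and 28.6% after 12 h, 23.8% and 33.8% at 24 h, and 24.2% and 38.3% after 48 h. Herpud1, in contrast, was higher in C10 with estradiol than in HAFTL by 0.37 at 3 h (adjusted p = 0.0077) and by 0.71 after 12 h (adjusted p = 2.9e-04), differed by 0.11 at 24 h (adjusted p = 0.30) and was lower at 48 h (-0.37, adjusted p = 0.0062). On its brightest probe set Atf6 was higher than in HAFTL by 0.34 at 24 h and 0.86 after 48 h. At 12 h it was called lower instead, with 564 and 585 against 834 and 897 in HAFTL. These comparisons share the estradiol arrays of C10 with those above, and cell line and agent remain joined in the choice of reference.

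The wider pathway was described with 8 lists of genes, given by counts and by the median change over the list. All genes tested had medians of -0.06, -0.08, -0.13 and -0.19 at the 4 times. Of them, 20.9% were higher and 27.3% lower at 3 h, and 22.3% and 28.7% after 12 h. At 24 h these shares were 24.2% and 33.3%, and after 48 h 24.2% and 38.2%. Among 24 tested ER chaperones and folding enzymes other than those above, 14 were higher and 3 lower at 3 h, 14 and 4 after 12 h, 20 and 1 at 24 h, and 17 and 4 after 48 h, with medians of 0.44, 0.68, 1.22 and 0.77. With spike-in scaling 10, 14, 15 and 14 of them were called higher and 0 lower. Sdf2l1, a partner of BiP's J-domain proteins, rose most at 24 h, with 5885 and 6115 there against 499 and 497 in vehicle C10 (3.59 ± 0.13, adjusted p = 6.1e-07). Pdia6 and Pdia4, disulfide isomerases, rose by 2.40 ± 0.11 and 2.11 ± 0.20 at 24 h, and Hyou1, a nucleotide exchange factor of BiP, by 1.06 ± 0.15. Fkbp11, a prolyl isomerase, was instead lower at 48 h, by at least 1.90-fold, since both its 48 h arrays lay under the filter level.

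Of 21 genes of ER-associated degradation, 7 were higher and 6 lower at 3 h, 10 and 4 after 12 h, 11 and 4 at 24 h, and 9 and 3 after 48 h. The medians were -0.08 (0.72 with spike-in scaling), 0.13, 0.28 and 0.04. With spike-in scaling 4, 8, 5 and 6 were higher and 1, 0, 0 and 0 lower, so most of the lower calls depended on the scaling. Edem1, which draws misfolded glycoproteins to degradation, had 1282 and 1096 in vehicle C10, 3882 and 3499 at 3 h, and 13171 and 12993 after 48 h, a rise of 3.46 ± 0.09 (adjusted p = 8.0e-08). Derl2, a channel protein of the same machinery, rose by 1.29 ± 0.08 at 3 h and 1.37 ± 0.08 after 48 h. Sel1l, the adaptor of the Hrd1 ligase, went the other way with Herpud1: it had 3781 and 3869 in vehicle C10, 882 and 1029 at 3 h, and 1474 and 1613 after 48 h, and fell by 2.01 ± 0.09 at 3 h (adjusted p = 3.0e-06) and by 1.31 ± 0.09 after 48 h. Ubqln1, a shuttle to the proteasome, fell by 1.56 ± 0.07 after 48 h. On the spike-in scale neither this fall nor that of Sel1l at 48 h was called.

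Genes of ER translocation and of transport to the Golgi were most often called higher at 24 h. Of 16 translocation genes, 9 were higher and 0 lower at 24 h, beside 3 and 6 at 3 h, 5 and 2 after 12 h and 4 and 3 after 48 h, and Tram1, a translocon partner, rose by 1.07 ± 0.11 at 24 h. At 48 h Sec62 was higher (0.46 ± 0.12) and Srprb, a subunit of the signal recognition particle receptor, lower (-0.84 ± 0.11). Of 17 transport genes, 8 were higher and 2 lower at 24 h, beside 2 and 5 at 3 h, 7 and 3 after 12 h and 3 and 3 after 48 h. Surf4, a cargo receptor, rose by 1.11 ± 0.08 at 24 h, Mcfd2 rose by 0.87 ± 0.08 after 48 h and Golgb1, a Golgi matrix protein, fell by 0.98 ± 0.09 after 48 h. With spike-in scaling 2, 3, 3 and 1 of the translocation genes and 1, 3, 2 and 3 of 18 transport genes were higher at the 4 times and 0 lower, so that neither list then had most calls at 24 h alone. On that scale the 3 h medians of these 2 lists were 0.73 and 0.65, against -0.04 and -0.05.

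The other sensors and partners were called in both directions. Of 12 genes tested, 6 were higher and 4 lower at 3 h, 1 and 4 after 12 h, 3 and 6 at 24 h, and 1 and 7 after 48 h. With spike-in scaling 3, 1, 0 and 1 of 13 were higher and 0 lower at any time, and the 48 h median was 0.09, against -0.40. Eif2ak3, which encodes Perk, had 1738 and 1809 in vehicle C10, 785 and 872 at 3 h, and 1318 and 1473 after 48 h, and fell by 1.10 ± 0.10 at 3 h (adjusted p = 9.2e-05) and by 0.35 ± 0.10 after 48 h. Mbtps2, the protease that makes the second cut in Atf6, fell by 1.03 ± 0.09 at 3 h and 1.32 ± 0.09 after 48 h. Rtcb, the ligase that joins the Xbp1 exons after Ire1 has cut, fell by 1.74 ± 0.07 after 48 h (adjusted p = 3.7e-07), at a time when Xbp1 and Ern1 were high. Crebzf, a leucine zipper factor, rose by 0.58 ± 0.18 at 3 h and fell by 0.67 ± 0.18 after 48 h.

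**Figure D4:**
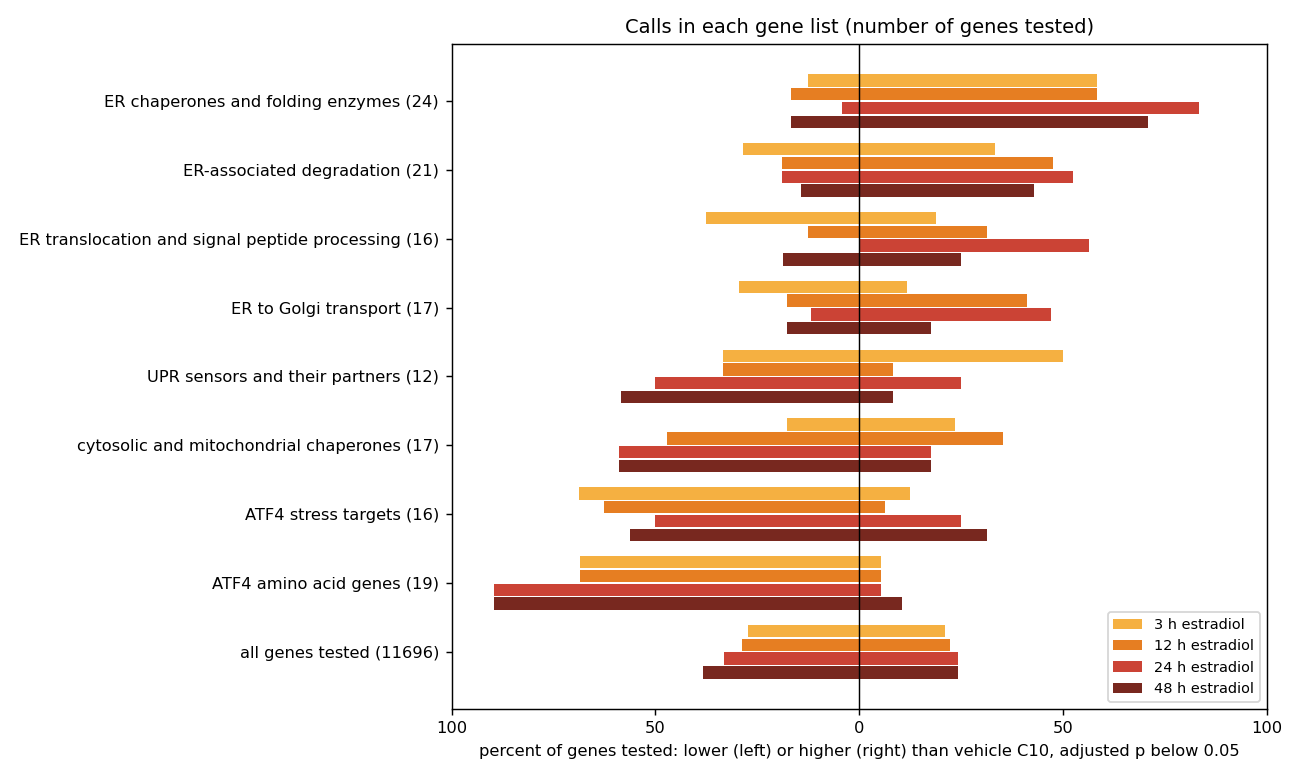
Percent of the tested genes of each list, and of all 11696 genes, called lower (left of 0) or higher (right of 0) than in vehicle C10 at 3, 12, 24 and 48 h; the number of genes tested stands beside each list. The ER chaperones lie mostly on the higher side, up to 20 of 24 genes at 24 h, and the amino acid genes downstream of Atf4 on the lower side, 17 of 19 after 48 h.

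Stress targets of Atf4 were more often lower than higher at each time, but at 48 h not with spike-in scaling. All genes leaned lower too: 38.2% were lower and 24.2% higher after 48 h, with a median of -0.19. Of 16 stress targets, 11 were lower and 2 higher at 3 h, 10 and 1 after 12 h, 8 and 4 at 24 h, and 9 and 5 after 48 h, with medians of -1.22, -1.08, -0.53 and -0.30. With spike-in scaling 6, 3, 4 and 3 were lower and 1, 2, 0 and 4 higher, with a 48 h median of 0.25. Against HAFTL, 6 were lower and 5 higher after 48 h, with a median of 0.08. Trib3, a pseudokinase induced with Chop, had 4163 and 4316 in vehicle C10, 463 and 533 at 3 h, and 291 and 323 after 48 h, and fell by 3.09 ± 0.09 at 3 h (adjusted p = 8.0e-07) and by 3.79 ± 0.09 after 48 h. Vegfa, an angiogenic growth factor, fell by 1.92 ± 0.15 at 3 h and 1.93 ± 0.15 after 48 h. Atf3, a stress-induced factor, was the exception among those named: it was not called at 3 h (-0.18) or 12 h (-0.30) and rose by 1.77 ± 0.17 after 48 h (adjusted p = 4.6e-05), with 3078 and 3857 after 48 h against 1008 and 1016 in vehicle C10.

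The amino acid genes downstream of Atf4, for synthesis, transport and tRNA charging, were lower in 13 of 19 at 3 h and at 12 h and in 17 of 19 at 24 h and 48 h, with 1, 1, 1 and 2 higher. Their medians were -0.64, -0.84, -1.49 and -2.07. With spike-in scaling 1, 2, 9 and 11 of them were lower and 1 higher at each time, with medians of 0.25, -0.03, -1.03 and -1.39. Cth, the enzyme that makes cysteine from cystathionine, had 5019.7 and 5184 in vehicle C10, 1392 and 1481 at 3 h, 309 and 292 at 24 h, then 123 and 123 after 48 h, and fell by 5.38 ± 0.08 after 48 h (adjusted p = 1.1e-08). Asns, asparagine synthetase, fell by 0.70 ± 0.10 at 3 h and 2.58 ± 0.10 after 48 h, and Gpt2, an alanine aminotransferase, by 3.40 ± 0.19 after 48 h. Shmt2, the mitochondrial serine hydroxymethyltransferase, was not called at 3 h (0.18) and fell by 3.10 ± 0.09 after 48 h. In HAFTL 14 of the 19 were lower than in vehicle C10 and 0 higher, with a median of -0.54. With HAFTL as the reference 7 were lower and 5 higher at 3 h and 16 and 2 after 48 h.

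Chaperones outside the ER were called in both directions. Of 17 tested cytosolic and mitochondrial chaperones, 4 were higher and 3 lower at 3 h, 6 and 8 after 12 h, and 3 and 10 at 24 h and again at 48 h, with a median of -1.02 after 48 h. With spike-in scaling 2, 3, 2 and 3 were higher and 0, 0, 2 and 2 lower, with a 48 h median of -0.28. Hspa9 and Hspd1, the Hsp70 and Hsp60 of mitochondria, fell by 2.63 ± 0.08 and 2.56 ± 0.11 after 48 h. Hspa1a, the heat-inducible Hsp70, was higher by at least 1.57-fold at 48 h, since it lay under the filter level in vehicle C10.

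**Figure D5:**
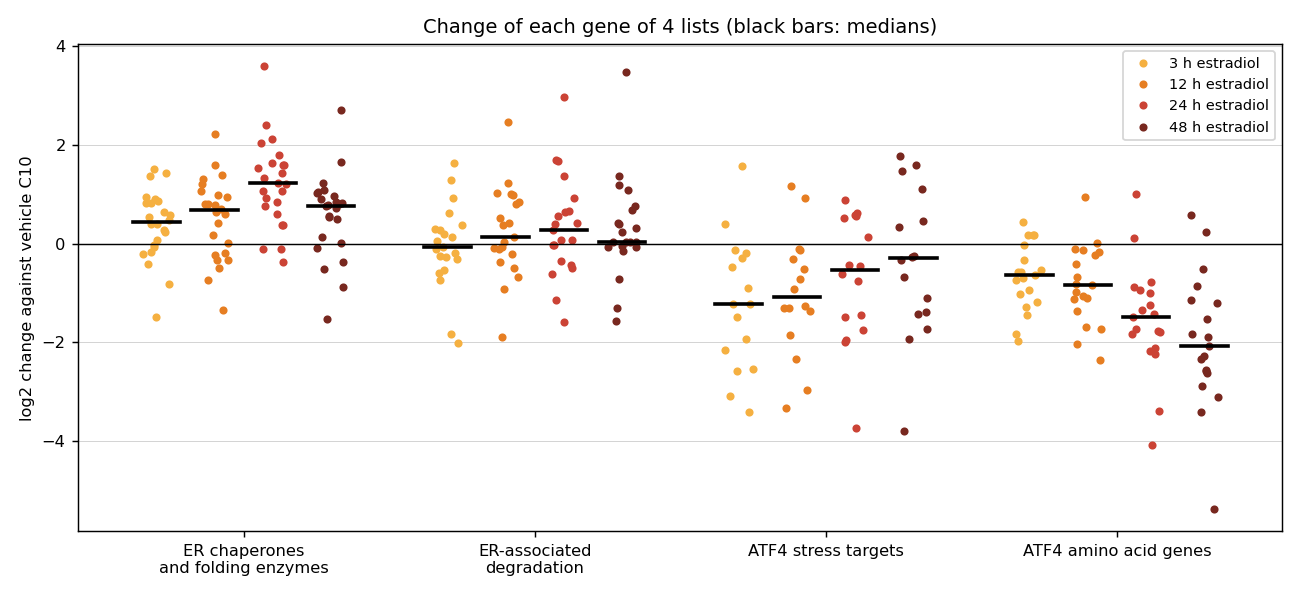
Log2 change against vehicle C10 at 3, 12, 24 and 48 h of each tested gene (points) of the ER chaperones, ER-associated degradation, Atf4 stress targets and Atf4 amino acid genes, with the median of each list at each time as a black bar. ER chaperones spread upwards to 3.59 (Sdf2l1 at 24 h) and the amino acid genes reach -5.38 (Cth at 48 h).

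Genes of the plasma cell program that go with Xbp1 in antibody-secreting cells moved in both directions. Of 6 tested plasma cell markers, 1 was higher and 3 lower at 3 h, and 2 were higher and 4 lower after 48 h. Of all genes, 24.2% were higher and 38.2% lower after 48 h. The 48 h changes of the markers ran from -3.12 to 2.86, and the largest rise was of a marker not named here. Irf4 had 254 and 272 after 48 h against 1499.6 and 1313 in vehicle C10, and fell by 2.42 ± 0.21 (adjusted p = 2.7e-05). Prdm1, which encodes Blimp1, was called higher at 24 h (1.59 ± 0.30, adjusted p = 0.0025) and at 48 h (1.08 ± 0.30), with 212 and 181 after 48 h against a dim 86 and 101 in vehicle C10. Together the 8 plasma cell markers had a summed signal of 9839 to 9852 after 48 h, against 37008 to 37543 in vehicle C10. Bright markers weigh most in this sum.

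The tested genes whose promoters hold each motif were counted beside the shares of all genes given above (20.9% higher and 27.3% lower at 3 h, 24.2% and 38.2% after 48 h). Of 13 tested genes with an ERSE, 6 were higher and 2 lower at 3 h, 6 and 3 after 12 h, 7 and 1 at 24 h, and 7 and 3 after 48 h. Their medians were 0.19, 0.03, 1.07 and 0.56. They include Hspa5, Hsp90b1 and Calr, which were among the higher genes at each time. Others, such as Creld2 and Pdia6, were already counted among the ER chaperones. These counts are thus not separate from those above. Of 8 with an ERSE-II, Herpud1 among them, 1 was higher and 2 lower at 3 h and 3 and 4 after 48 h. Of 273 with a CARE, 49 were higher and 99 lower at 3 h (17.9% and 36.3%) and 65 and 102 after 48 h (23.8% and 37.4%), with medians of -0.18 and -0.25. The 48 h shares of the CARE genes are near those of all genes. A match of letters is a description and shows no binding.

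Over the 12 arrays, Hspa5 ran closely with Xbp1 (Pearson r = 0.95), Hsp90b1 (0.92) and Calr (0.91), while Atf4 ran opposite to Ern1 (-0.92) and Xbp1 (-0.91). Ddit3 ran opposite to Calr (-0.88) and Hsp90b1 (-0.84). These coefficients describe 12 arrays that form 6 groups and share their time course, and no test was made of them. Among all genes tested, those most like Xbp1 were Klf7, Nfe2 and Slc11a1 (r of 0.99 or more for each). Most like Hspa5 were Papss2, Srebf1 and Mindy3, most like Ern1 were Mknk1, Tcirg1 and Arrb2, and most like Ddit3 were Zkscan14, Zfp592 and Sema3g. The gene most like Calr was Derl2 (r = 0.98), from the degradation list, and those most like Herpud1 and Dnajb9 were Farsb (0.96) and Cox4i1 (0.95).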

How the data were processed

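RNA of 12 samples was measured on one-colour arrays after Trizol extraction, per the labels' protocols. The table deposited by the authors holds array intensities on a linear scale, to judge by their range. How the authors summarised and scaled them is not given in the sources used here. A mean trimmed by 2% at either end came out equal on every array, and array medians ran from 68.5 to 85.0. The intensities were taken to log2, quantile normalised over 45101 probe sets, stripped of 64 control probe sets and floored at 16. Symbols came from the platform annotation, updated by Entrez ID to RefSeq (GRCm38.p6): 34741 of 34945 probe sets with a single gene matched, 932 had several genes and 9160 had none listed. A gene was its brightest probe set over the 12 arrays, and was tested where 2 or more arrays exceeded a log2 signal of 6.22 (74.6 on the linear scale), which is the median over all values. A gene dim in vehicle C10 passed only through other arrays.

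The model, fitted with limma (3.58.1) under R (4.3.3), gave each group its mean over all 12 arrays, with 6 residual and 1.53 prior degrees of freedom. Tests were two-sided, with p-values adjusted by Benjamini-Hochberg over 11696 genes. A second fit took every probe set on its own. The script was tested on simulated data. Where a group had neither array over the filter level, a change is a lower bound against it. All genes and probe sets of the response are described; from each list, up to 3 called genes with the largest change at 48 h and 10 set genes (Eif2ak3, Atf3, Trib3, Asns, Hyou1, Pdia4, Edem1, Sel1l, Prdm1 and Irf4) were named, and for likeness the 3 genes with the highest Pearson r. Genes and lists were chosen with earlier results of these data known. Same-numbered samples did not deviate together (r over 15 pairs of groups between -0.03 and 0.04), so the numbers do not pair them. Alternatives were no quantile normalisation, centring on the array median, scaling to 24 spike-in probe sets, other filters and floors, a pseudocount of 16, averaging the probe sets of a gene, fewer groups, HAFTL as reference, a replicate block, a trend of the prior with intensity and leaving out each array.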

Additional observations from a re-analysis of the deposited data

Results flagged for a closer look

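The changes against vehicle C10 differed between successive times for 20 combinations of gene and step, by a test of the difference itself (limma, Benjamini-Hochberg adjustment over 11696 genes; n = 2 arrays per group). The vehicle arrays cancel in these differences, which are given on the log2 scale, later time minus earlier, and none was called with spike-in scaling. With that scaling, calls between successive times were scarcer among all genes too.

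From 3 h to 12 h the largest was Ern1, the Ire1 sensor, at 1.39 (adjusted p = 2.6e-05). Xbp1 gave 0.788 (adjusted p = 9.9e-04), Dnajb9 0.451 (0.0058), Hsp90b1 0.394 (0.012), Herpud1 0.34 (0.018), Hspa5 0.339 (0.014) and Ddit3 0.283 (0.039). Atf6 gave -0.816 (adjusted p = 0.0011) on its brightest probe set. The smaller of these steps, those of Hspa5, Hsp90b1, Herpud1 and Ddit3, each lost their call when 1 array or another was left out.

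From 12 h to 24 h Atf6 turned to 0.931 (adjusted p = 2.8e-04), Xbp1 gained 0.624 (0.0017), Calr 0.416 (0.0066) and Hspa5 0.359 (0.0076), while Herpud1 gave -0.6 (8.2e-04) and Atf4 -0.557 (8.4e-04). One of the 3 probe sets of Hspa5 went the other way in this step.

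From 24 h to 48 h Ddit3 gave 1.11 (adjusted p = 1.6e-04), Ern1 0.697 (7.0e-04) and Atf6 0.52 (0.011), and Hsp90b1 gave -0.575 (0.0030), Herpud1 -0.477 (0.0057) and Hspa5 -0.256 (0.049). The step of Hspa5 lost its call without any 1 of the 12 arrays (adjusted p between 0.051 and 0.20), and that of Atf6 without the second 24 h array (adjusted p = 0.062).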

How the results depend on the processing

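Of 35 called changes of a time against vehicle C10, 34 kept their direction and their call in each of 22 alternatives, and the exception was Atf4 at 12 h. Many of these alternatives could hardly move a call. Leaving out an array outside a comparison keeps its estimate, and other floors or a pseudocount bear mainly on dim signals. The remaining alternatives moved more: 23 of the 35 kept direction and call with spike-in scaling, 30 after averaging the probe sets of a gene, and 29 with HAFTL as the reference. With spike-in scaling the number of genes called was 5 at 3 h, 0 for HAFTL, 0 for the steps between times and 6 in the F test. Calls for HAFTL and for the steps were scarcer among all genes too with that scaling. The share of all genes in that F test is not given here. Fitting only HAFTL and vehicle C10 left 2 calls between them, in a fit with fewer arrays for which the share of all genes is not given either. Without 1 array each, 9 genes were called at 3 h, 8 to 9 at 12 h, 9 at 24 h, 8 at 48 h, 4 to 6 for HAFTL and 15 to 19 of the 20 steps, and 79 to 83 probe set calls against 82. With the replicate number as a block, 79 of 80 results kept direction and call, and the step of Ddit3 from 3 h to 12 h did not (adjusted p = 0.054); the block changed no other call.

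Changes of sign were these, as log2 differences. With the mean of the probe sets Hspa5 in HAFTL was 0.013, the last step of Atf4 0.034, Atf6 0.42, 0.44 and 0.75 at 3, 24 and 48 h and Ern1 at 3 h 0.11. Without quantile normalisation Hsp90b1 in HAFTL was -0.027, Atf4 at 3 h 0.037 and Dnajb9 at 24 h -0.0049; with median centring these were -0.16, 0.15 and -0.0075. With spike-in scaling Hsp90b1 was -0.0044 in HAFTL and -0.16 from 12 h to 24 h, Atf4 0.77 at 3 h, 0.59 at 12 h and 0.12 in its last step, Atf6 0.41 at 48 h, Ern1 0.17 at 3 h and -0.23 from 12 h to 24 h, Dnajb9 0.051, 0.53 and 0.50 at 3, 12 and 48 h and -0.22 and 0.19 in its later steps, Herpud1 0.11 at 12 h and Calr 0.019 in its last step. With HAFTL as the reference Atf6 was 0.23, 0.34 and 0.86 at 3, 24 and 48 h, Ern1 0.0071 at 3 h, Dnajb9 0.087 and 0.20 at 12 and 48 h and Herpud1 0.37, 0.71 and 0.11 at 3, 12 and 24 h. Without 1 array each, Hsp90b1 in HAFTL ran from -0.058 to 0.11, the 24 h step of Ddit3 from -0.062 to 0.019 and Dnajb9 at 48 h from -0.071 to 0.0061. The causes were not tested. Precision is limited by having 2 arrays per group, and dim probe sets near the floor understate their changes.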
